A study of Mus musculus with 6 samples.

Results

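The vacuolar ATPase (V-ATPase) subunit genes and the cathepsin genes of mouse lung were described across lungs of mice that had received different media. Members were the genes whose symbol in the authors' gene table begins with Atp6v, or consists of Cts and 1 further letter or digit. The rule found 44 genes among 21697 symbols on the array, 22 of them V-ATPase subunits and 22 cathepsins, and each was read from its brightest probe set. Of these, 33 passed the filter on low values and were tested (21 V-ATPase subunits and 12 cathepsins). The symbol rule does not reach Tcirg1, the a3 subunit of the pump, or the accessory subunits Atp6ap1 and Atp6ap2, which are treated below with the other genes of the pathway.

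The study measured whole lungs of 6 C57BL/6 mice, aged 8 weeks, with 1 Affymetrix mouse gene array per mouse. All 6 mice were injected into the peritoneum once a day for 7 days with 100 uL of fluid. The 2 Control mice received RPMI, a culture medium, the 2 PC3 mice medium in which PC3 cells (a line from human prostate cancer) had grown, and the 2 LN4 mice medium from PC3M-LN4 cells, a metastatic derivative of PC3. The series' title contrasts lungs that favour metastasis with lungs that resist it, so the LN4 and PC3 lungs are the pair of most interest. Conditioned media are mixtures whose active part is not named in the labels.

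Values are log2 values after RMA (robust multi-array average), where 1 unit is a doubling, and they compare 1 gene across lungs rather than genes with each other. The 95th percentile of the negative control probe sets lay between 7.37 and 7.69 in the 6 arrays, and values under it are near background. The array of LN4 replicate 3 stood apart, with a Pearson correlation to the others of 0.918 to 0.933, against 0.961 to 0.990 for the other pairs. It carried high levels of genes of stratified squamous epithelium (mean level of 10 markers 11.10, against 4.70 to 7.01 elsewhere, PC3 replicate 4 being the 7.01). Genes of skeletal muscle were also high in it (mean of 10 markers 9.78, against 5.35 to 5.60). Each group held 1 array with a low share of detected probe sets (35.4% to 39.8%) and 1 with a high share (46.1% to 50.9%). The markers of alveolar type 2 cells were at a mean level of 11.24 to 11.89 in every array, as lung tissue should show. In whole lung, fewer cells of a type and less RNA per cell cannot be told apart.

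Lysosomes digest what cells take up and what they discard. The V-ATPase is the rotary proton pump that acidifies them: its soluble V1 domain hydrolyses ATP, and its membrane domain V0 carries protons across the membrane. Cathepsins are the proteases of this compartment, most of them papain-like cysteine proteases with a few aspartic and serine enzymes, made as inactive precursors that mature at acid pH. In lung, macrophages and alveolar type 2 cells are rich in lysosomes, the latter storing surfactant in lysosome-related lamellar bodies.

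Many genes of both families share an element in their promoters, known as the CLEAR element, which is bound by the transcription factor TFEB and its relatives. Promoter windows of 250 bases before to 50 bases after the start of the gene were taken from RefSeq (build GRCm38.p6) and matched 34 of the 44 members by symbol. The palindrome TCACGTGA, the core of that element, occurred in the windows of 5 of these 34 (14.71%), namely Atp6v0d1, Atp6v0e, Atp6v1a, Ctsa and Ctsd, and in 0.974% of all 32851 windows. The shorter E-box CACGTG, which the palindrome contains, was present in 8 of 34 (23.53%), the others being Atp6v0b, Ctsf and Ctsl, and in 7.15% of all windows. GAGGAAGT, a form of the site of the myeloid factor PU.1, was found in the windows of Ctss, Ctsc and Cts6 (8.82% of members, 3.20% of all windows) and overlaps neither of the other motifs. Both strands were searched, and a match is only a run of letters. The windows of 1 pump subunit of each domain, 1 ubiquitous cathepsin and Ctss, the cathepsin with the smallest p below, are shown 5′ to 3′ on the strand of the gene, with the palindrome, or for Ctss the PU.1 letters of the other strand, in capitals. They lie at chr8:105566015-105566314 (Atp6v0d1, minus strand), chr16:44139210-44139509 (Atp6v1a, minus strand), chr7:142387778-142388077 (Ctsd, minus strand) and chr3:95526536-95526835 (Ctss, plus strand).
Atp6v0d1: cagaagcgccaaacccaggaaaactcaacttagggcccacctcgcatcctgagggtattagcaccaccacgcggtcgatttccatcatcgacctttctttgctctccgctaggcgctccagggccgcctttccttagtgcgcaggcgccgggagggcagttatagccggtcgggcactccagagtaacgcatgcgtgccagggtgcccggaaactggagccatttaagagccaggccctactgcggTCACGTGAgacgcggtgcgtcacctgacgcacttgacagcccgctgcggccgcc
Atp6v1a: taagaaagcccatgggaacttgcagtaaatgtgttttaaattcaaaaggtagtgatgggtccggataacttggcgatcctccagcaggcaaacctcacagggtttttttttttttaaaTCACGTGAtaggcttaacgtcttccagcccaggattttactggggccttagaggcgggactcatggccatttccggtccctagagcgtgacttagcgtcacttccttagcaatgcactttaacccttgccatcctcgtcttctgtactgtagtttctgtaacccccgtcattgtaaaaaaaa
Ctsd: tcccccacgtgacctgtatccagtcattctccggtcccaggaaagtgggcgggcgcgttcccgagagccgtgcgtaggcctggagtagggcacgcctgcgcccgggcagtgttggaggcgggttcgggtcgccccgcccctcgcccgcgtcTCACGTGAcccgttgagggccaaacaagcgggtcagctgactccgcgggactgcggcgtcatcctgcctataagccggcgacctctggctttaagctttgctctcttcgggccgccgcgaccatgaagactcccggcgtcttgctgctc
Ctss: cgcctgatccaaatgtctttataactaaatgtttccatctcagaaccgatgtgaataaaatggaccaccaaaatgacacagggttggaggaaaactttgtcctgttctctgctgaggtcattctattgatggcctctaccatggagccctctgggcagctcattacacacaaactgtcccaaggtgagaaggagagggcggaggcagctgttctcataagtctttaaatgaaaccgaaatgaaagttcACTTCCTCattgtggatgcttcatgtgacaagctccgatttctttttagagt

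The palindrome began 4 bases before the start of Atp6v0d1, 132 before that of Atp6v1a and 99 before that of Ctsd, and the letters of Ctss began 2 bases before its start. For Atp6v0e and Ctsa 30 bases around the palindrome are given, at chr17:26676387-26676416 and chr2:164833749-164833778, both on the plus strand. The Ctsa window held the palindrome at 2 places, of which the one beginning 13 bases before the start is shown.
Atp6v0e: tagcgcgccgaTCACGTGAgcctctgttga
Ctsa: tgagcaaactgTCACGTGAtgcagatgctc

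Cathepsins had lower levels in LN4 than in PC3 lungs. The LN4 mean lay below the PC3 mean for 12 of the 12 tested cathepsins (52.2% of all tested probe sets had a lower LN4 mean), with differences from -0.62 to -0.05 and a median of -0.28 on the log2 scale, against -0.01 over all tested probe sets. For 8 of the 12 both LN4 arrays lay below both PC3 arrays, against 18.1% of all tested probe sets. Ctss, Ctsc, Ctsk and Ctsh had the largest differences, and Ctso, Ctsz, Ctsb and Ctsa were the other 4 without overlap. No cathepsin and none of the 21330 probe sets passed limma with Benjamini-Hochberg adjustment (0% called in each of the 3 comparisons), and the smallest adjusted p of any member was 0.842. At an unadjusted p under 0.05 in limma, 2 cathepsins were lower and 0 were higher, against 2.93% and 2.2% of all tested probe sets.

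Ctss encodes cathepsin S, which trims the invariant chain of MHC class II in antigen-presenting cells. It read 10.62 and 10.71 in the Control lungs, 10.97 and 10.82 in the PC3 lungs and 10.38 and 10.16 in the LN4 lungs. The 3 groups did not overlap, with PC3 highest and LN4 lowest. LN4 lungs were lower than PC3 lungs by a log2 difference of -0.62 (SE 0.18), a 1.54-fold difference, with an unadjusted limma p of 0.0115 and an adjusted p of 0.842. Between arrays of like detection the difference was -0.58 in the low and -0.66 in the high pair.

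Ctsc encodes cathepsin C, a dipeptidyl peptidase that activates the granule proteases of neutrophils, mast cells and cytotoxic lymphocytes. Its level was 10.48 and 10.81 in Control, 10.63 and 11.11 in PC3 and 10.09 and 10.42 in LN4 lungs, so that both LN4 lungs lay below all others. The difference between LN4 and PC3 lungs was -0.61 (SE 0.24, unadjusted limma p 0.0410, adjusted p 0.842). Between arrays of like detection it was -0.54 in the low and -0.69 in the high pair. Neutrophils carry substrates of cathepsin C, and 7 of 9 tested markers of them had a higher mean in LN4 than in PC3 lungs (47.8% of all tested probe sets). S100a9 read 7.79 and 8.47 in LN4 against 6.66 and 7.11 in PC3 lungs, both PC3 values lying under the negative-control percentile. The largest difference was that of Ltf, which was lower, at 9.87 and 7.24 against 10.21 and 9.66. Retnlg, Cxcr2, Mpo, Elane, Prtn3 and Camp lay under the negative-control percentile in every array.

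Ctsk, cathepsin K, is a collagen-degrading enzyme best known from osteoclasts and also made by lung fibroblasts. Control lungs read 8.21 and 8.16, PC3 lungs 7.77 and 8.36 and LN4 lungs 7.70 and 7.23, the last of these under the negative-control percentile of its own array. Both LN4 lungs were lowest, but LN4 replicate 1 lay only 0.07 below PC3 replicate 4 (-0.07 in the low-detection pair and -1.13 in the high one). The difference of the means was -0.60 between LN4 and PC3 (SE 0.26) and -0.72 between LN4 and Control lungs (SE 0.26). The latter had an unadjusted limma p of 0.0294 and an adjusted p of 0.9997.

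Ctsh, cathepsin H, is an aminopeptidase of alveolar type 2 cells, where it takes part in the maturation of surfactant protein B. Its values were 9.99 and 10.31 in Control, 10.03 and 10.54 in PC3 and 9.75 and 9.92 in LN4 lungs. LN4 lungs were again below all others, by -0.45 against PC3 (SE 0.24) and -0.31 against Control (SE 0.24). Napsa, the napsin A protease that acts on the same surfactant precursor, read 9.69 and 10.05 in Control, 9.91 and 10.37 in PC3 and 9.18 and 9.79 in LN4 lungs, a difference of -0.65 (SE 0.28) between LN4 and PC3. Of the alveolar type 2 markers, Napsa among them, 9 of 9 had a lower mean in LN4 than in PC3 lungs (52.2% of all tested probe sets). Their mean level was 11.60 and 11.76 in Control, 11.65 and 11.89 in PC3 and 11.43 and 11.24 in LN4 lungs. The order of the LN4 lungs differed: Ctsh and Napsa were lower in replicate 1, and the mean of the list was lower in replicate 3.

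Ctsz, cathepsin Z, is a carboxypeptidase of macrophages and other phagocytes. It stood at 10.18 and 10.25 in Control, 10.44 and 10.29 in PC3 and 10.08 and 9.94 in LN4 lungs, and the groups did not overlap. Ctso, a little studied cysteine cathepsin, read 7.97 and 8.16, then 8.09 and 8.36, then 7.87 and 7.84 in the same order. LN4 minus PC3 was -0.35 for Ctsz (SE 0.18) and -0.37 for Ctso (SE 0.19).

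Ctsb, the abundant cysteine cathepsin B, was at 10.50 and 10.68 in Control, 10.61 and 10.66 in PC3 and 10.36 and 10.48 in LN4 lungs. Ctsa, a serine carboxypeptidase that protects lysosomal galactosidase and neuraminidase, was at 9.63 and 9.80, 9.85 and 9.86, and 9.67 and 9.76. Both were lower in the LN4 than in the PC3 lungs without overlap. The difference was smaller than its SE for Ctsa (-0.14, SE 0.17) and little larger than its SE for Ctsb (-0.22, SE 0.18).

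**Figure D1:**
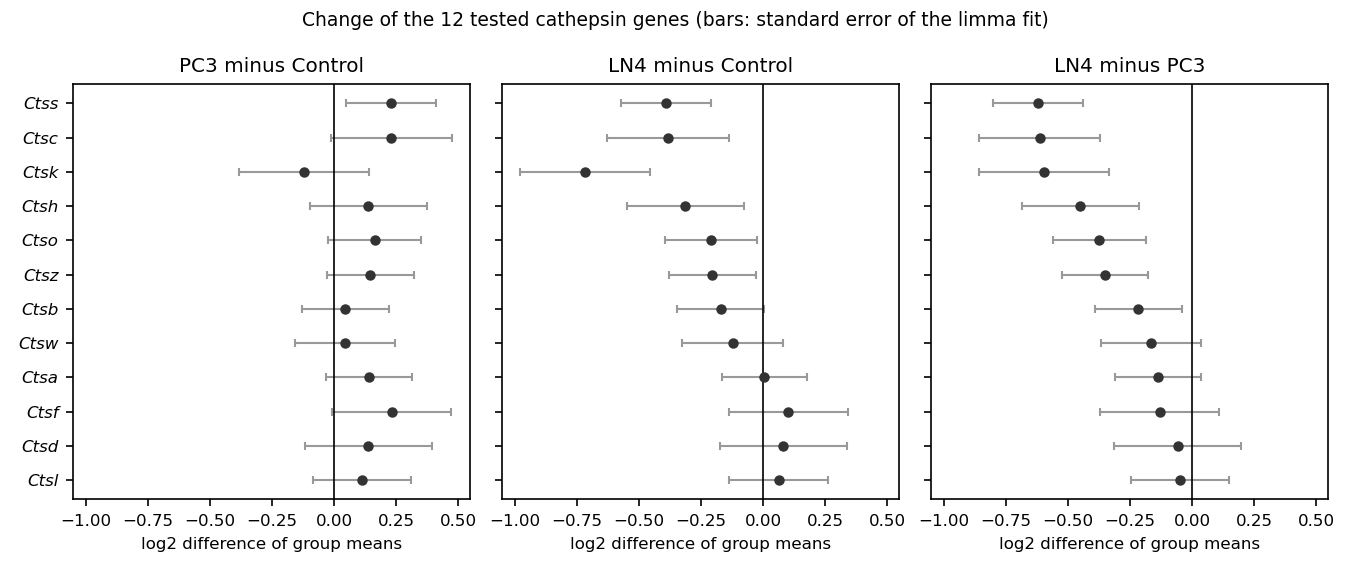
Log2 difference of group means for the 12 tested cathepsin genes in the 3 comparisons; points are differences and bars the standard error of the limma fit. In LN4 minus PC3 all 12 points lie below 0, from -0.62 for Ctss to -0.05 for Ctsl, whereas 11 of 12 lie above 0 in PC3 minus Control; the panels share arrays.

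The lower cathepsins were present in each LN4 lung taken alone. LN4 replicate 1 alone lay below the PC3 mean for 11 of 12 tested cathepsins (48.6% of all tested probe sets) and below both PC3 arrays for 10 of 12 (34.5%). LN4 replicate 3 alone was below the PC3 mean for 10 of 12 (59.1%) and below both PC3 arrays for 9 of 12 (39.7%). The median difference from the PC3 mean was -0.32 for LN4 replicate 1 and -0.37 for LN4 replicate 3. Set against PC3 replicate 4 alone the LN4 mean was lower for 12 of 12 (56.9%), and against PC3 replicate 5 alone for 10 of 12 (48.6%). With both arrays that carry squamous genes left out, LN4 replicate 1 was below PC3 replicate 5 for 10 of 12 (47.4%). That last setting has 1 residual degree of freedom, from the Control lungs, sets a low-detection array against a high-detection one, and called Ctsc (-1.02, adjusted limma p 0.00232) and Ctsh (-0.79, adjusted limma p 0.0218) among 2593 probe sets. The counts of cathepsins under these leave-outs were added after the values were seen, and each compares very few mice.

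Against Control lungs, the cathepsins of LN4 lungs were lower and those of PC3 lungs slightly higher. In LN4 lungs 8 of 12 tested cathepsins had a mean below Control (53.1% of all tested probe sets), 7 of them without overlap (16.9%), and 1, Ctsf, was higher without overlap (12%). The median of the 12 was -0.19, against -0.02 over all tested probe sets. In PC3 lungs 11 of 12 had a mean above Control (53.4%), 5 of them without overlap (16.4%), with a median of 0.14 against 0.02. PC3 replicate 5 alone lay above the Control mean for 11 of 12 (48.7%) and PC3 replicate 4 alone for 9 of 12 (56%). Ctss (0.23, SE 0.18), Ctsz (0.15, SE 0.18), Ctsa (0.14, SE 0.17), Ctsd (0.14, SE 0.26) and Ctsl (0.11, SE 0.20) were the 5, and none of these differences was past 2 SE. At an unadjusted limma p under 0.05 there was 1 cathepsin for LN4 against Control, Ctsk, which was lower (1.2% of all probe sets were lower and 0.849% higher), and 0 for PC3 against Control, where 0.525% were higher and 1.71% lower. The 3 comparisons share their arrays, so their directions are not independent of each other.

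Ctsd, Ctsl and Ctsf did not separate LN4 from PC3 lungs. Ctsd, the aspartic protease cathepsin D, read 11.61 and 11.76 in Control, 11.88 and 11.76 in PC3 and 11.41 and 12.11 in LN4 lungs, and Ctsl, cathepsin L, read 9.49 and 9.49, 9.64 and 9.57, and 9.35 and 9.75. For both genes LN4 replicate 1 was the lowest and LN4 replicate 3 the highest of the 6 lungs, and the group difference was far under its SE (LN4 minus PC3 -0.06 with SE 0.26 and -0.05 with SE 0.20). They were the only tested cathepsins for which LN4 replicate 3 was highest (2 of 12, against 19.6% of all tested probe sets). Ctsf, cathepsin F, was near background, at 7.39 and 7.45, 7.97 and 7.33, and 7.57 and 7.47.

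Ctsw, a cathepsin of natural killer and cytotoxic T cells, lay under the negative-control percentile in every array, at 6.10 and 5.96, 6.11 and 6.04, and 6.11 and 5.71. Ctsg, the serine protease cathepsin G of neutrophil granules (3.93 to 4.48), and Ctse, the aspartic cathepsin E (4.47 to 4.92), failed the filter on low values. So did Cts3, Cts6, Cts7, Cts8, Ctsj, Ctsm, Ctsq and Ctsr, 8 genes of the rodent placental cathepsin cluster, and none of these 10 exceeded the negative-control percentile in any array. With these at-background genes included, 14 of all 22 cathepsins had a lower mean in LN4 than in PC3 lungs and the median over the 22 was -0.13. LN4 minus Control changed sign with them, from -0.19 over the 12 tested to 0.04 over all 22.

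**Figure D2:**
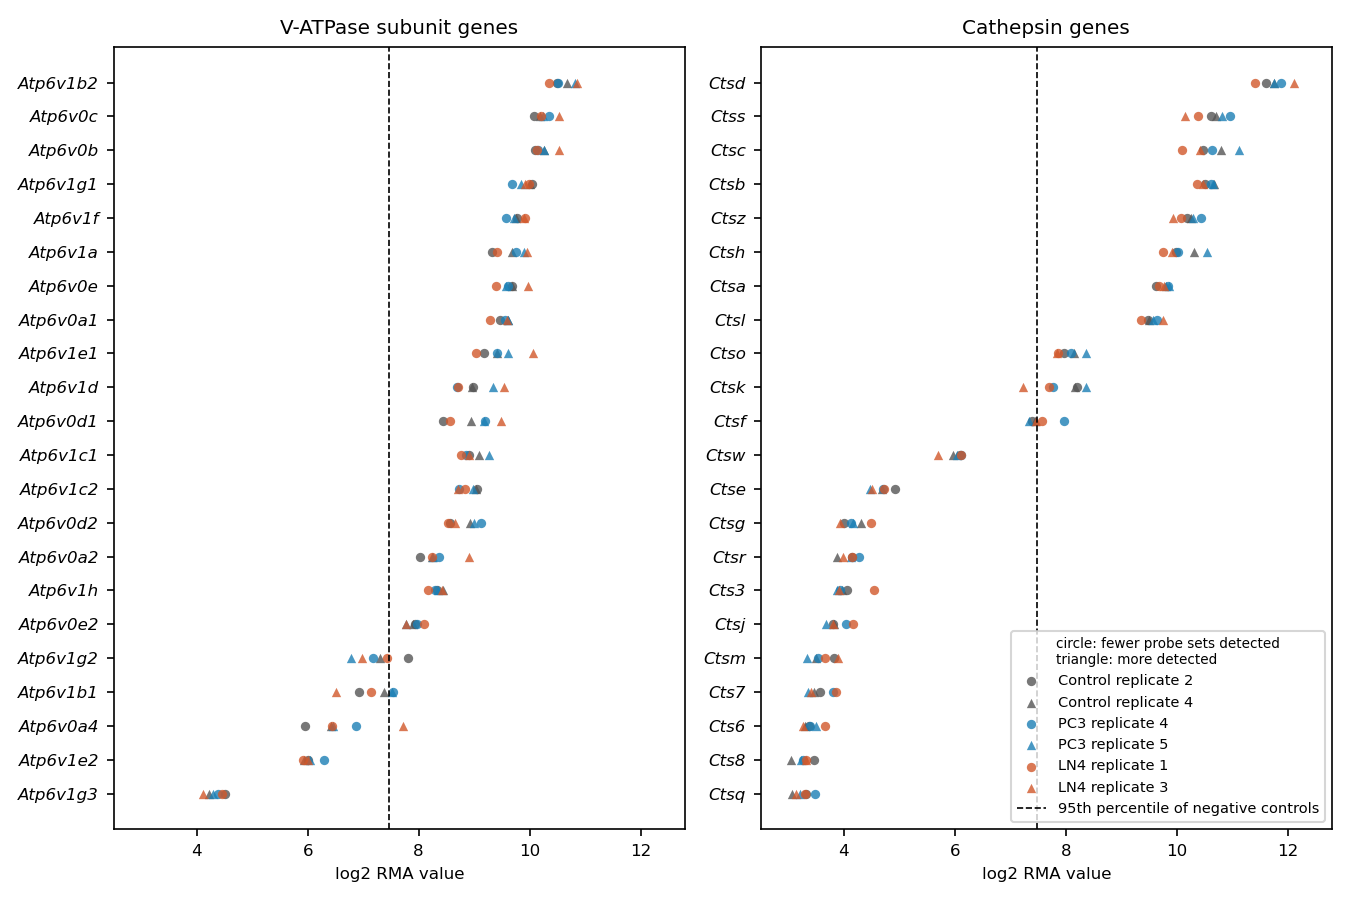
Log2 RMA value of each of the 44 genes in each of the 6 arrays, with colour for the group and a circle or triangle for the array with the lower or higher share of detected probe sets in that group. The dashed line is the 95th percentile of the negative controls, taken over their means (7.47); the 10 cathepsins and Atp6v1g3 that were not tested lie left of it in all arrays.

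V-ATPase subunit genes as a whole had no shared shift between the groups. Of 21 tested subunits, 14 had a higher mean in PC3 than in Control lungs, 12 in LN4 than in Control and 11 in LN4 than in PC3 lungs (53.4%, 46.9% and 47.8% of all tested probe sets). The other 7, 9 and 10 had a lower mean (46.6%, 53.1% and 52.2%). The medians were 0.06, 0.01 and 0.04. Without overlap of the arrays, 8 were higher and 5 lower in PC3 than in Control (16.4% and 15.3%), 4 higher and 3 lower in LN4 than in Control (12% and 16.9%), and 2 higher and 3 lower in LN4 than in PC3 lungs (11.4% and 18.1%). None passed limma after adjustment, and 1, Atp6v1b1, had an unadjusted limma p under 0.05. For 15 of 21 subunits LN4 replicate 3 lay above LN4 replicate 1, as for 41.3% of all tested probe sets. The 9 V0 genes had a median of 0.17 in PC3 and 0.15 in LN4 lungs against Control. In each, 7 of 9 were higher (53.4% and 46.9% of all tested probe sets). In LN4 replicate 1 alone the V0 median from the Control mean was -0.05. The 13 V1 genes, the untested Atp6v1g3 among them, had medians of 0.04 and -0.07, with 7 and 5 higher.

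Among the V0 genes, Atp6v0c encodes the c subunit of the proton-carrying ring and Atp6v0b a related ring protein. Atp6v0c read 10.07 and 10.18 in Control, 10.35 and 10.24 in PC3 and 10.21 and 10.52 in LN4 lungs, so that both treated groups lay above Control (0.17 and 0.24, SE 0.19). The other 2 of its 3 probe sets did not separate PC3 from Control lungs, at 10.14 and 10.14 against 10.22 and 10.08, and at 10.12 and 10.14 against 10.28 and 10.10. In LN4 lungs the first of these read 10.14 and 10.37, overlapping Control, and the second 10.18 and 10.45, above Control. Atp6v0b read 10.09 and 10.27, 10.16 and 10.26, and 10.13 and 10.52, with overlap in every comparison. The small subunit gene Atp6v0e read 9.68 and 9.68, 9.61 and 9.57, and 9.40 and 9.98, its LN4 lungs lying on either side of all others. Its isoform Atp6v0e2 read 7.94 and 7.89, 7.96 and 7.78, and 8.10 and 7.77.

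The a subunits anchor the pump and differ in where they are used. The widely expressed Atp6v0a1 read 9.46 and 9.61 in Control, 9.56 and 9.61 in PC3 and 9.28 and 9.59 in LN4 lungs, and did not separate the groups. Atp6v0a2, found in Golgi and endosomes, read 8.02 and 8.24, 8.36 and 8.25, and 8.25 and 8.91, both treated groups lying above Control (LN4 minus Control 0.45, SE 0.25). The other probe set of Atp6v0a2 did not do the same, at 7.88 and 7.63, 7.84 and 7.52, and 8.04 and 7.64. Atp6v0a4, the isoform of acid-secreting kidney and epididymal cells, exceeded the negative-control percentile in 1 array, LN4 replicate 3, at 5.95 and 6.43, 6.87 and 6.45, and 6.44 and 7.72. Its LN4 minus Control difference of 0.89 (SE 0.42) was called, among the settings run, only when LN4 replicate 1 was left out (1.53, adjusted limma p 0.0288, among 853 probe sets called), a setting in which LN4 replicate 3 alone stands for its group and is assumed to vary like the others.

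The d subunit couples the rotor to the ring. The general form Atp6v0d1, one of the genes with the TFEB palindrome, read 8.44 and 8.94 in Control, 9.20 and 9.17 in PC3 and 8.56 and 9.49 in LN4 lungs. PC3 lungs were above Control by 0.50 (SE 0.33), and the LN4 lungs lay on both sides of them. Atp6v0d2, the form of osteoclasts and macrophages, had another order, with 8.57 and 8.92 in Control, 9.12 and 8.99 in PC3 and 8.53 and 8.66 in LN4 lungs. PC3 lungs were higher than Control by 0.31 (SE 0.20), and LN4 lungs were lower than PC3 lungs by -0.46 (SE 0.20), without overlap in either comparison. This difference was also present within the low-detection pair (-0.59) and the high-detection pair (-0.34).

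In the V1 domain, subunits A and B form the ring that hydrolyses ATP. Atp6v1a, the catalytic A subunit and another gene with the palindrome, read 9.31 and 9.69 in Control, 9.76 and 9.89 in PC3 and 9.42 and 9.95 in LN4 lungs (PC3 minus Control 0.33, SE 0.24). Atp6v1b2, the general B subunit, read 10.50 and 10.68, 10.51 and 10.81, and 10.35 and 10.85, without any separation of the groups. Atp6v1b1, the B subunit of acid-secreting epithelia, read 6.93 and 7.38, 7.53 and 7.52, and 7.14 and 6.51, and exceeded the negative-control percentile in 1 array. Its LN4 minus PC3 difference was -0.70 (SE 0.27, unadjusted limma p 0.0346, adjusted p 0.842), with -0.39 and -1.01 in the low and high pairs.

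Subunits C and H regulate how V1 joins V0. Atp6v1c1 read 8.91 and 9.09 in Control, 8.85 and 9.27 in PC3 and 8.75 and 8.90 in LN4 lungs. Atp6v1c2, an isoform known from the lamellar bodies of mouse alveolar type 2 cells, read 9.05 and 9.04, 8.73 and 8.99, and 8.83 and 8.70. Both treated groups lay below Control for Atp6v1c2, by -0.19 in PC3 and -0.28 in LN4 lungs (SE 0.18). Atp6v1h showed no separation, at 8.33 and 8.44, 8.30 and 8.34, and 8.17 and 8.42.

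The stalks of V1 are built from subunits E and G, and its rotor from D and F. Atp6v1e1 read 9.17 and 9.42 in Control, 9.41 and 9.61 in PC3 and 9.04 and 10.06 in LN4 lungs, the widest gap between LN4 lungs (1.02) among the V1 genes. Atp6v1d also had its highest value in LN4 replicate 3, at 8.98 and 8.97, 8.68 and 9.34, and 8.71 and 9.54. Atp6v1f read 9.77 and 9.75, 9.57 and 9.71, and 9.92 and 9.90, with both LN4 lungs above all others, by 0.15 against Control and 0.27 against PC3 (SE 0.17). Its other probe set read 9.46 and 9.50, 9.37 and 9.79, and 9.65 and 9.66, with PC3 replicate 5 highest.

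The G subunit has isoforms by tissue. The general Atp6v1g1 read 10.04 and 10.00 in Control, 9.68 and 9.85 in PC3 and 10.00 and 9.91 in LN4 lungs, lower in PC3 than in Control by -0.26 (SE 0.17). Atp6v1g2, the neuronal form, was near or below background at 7.82 and 7.30, 7.17 and 6.78, and 7.43 and 6.97, a PC3 minus Control difference of -0.58 (SE 0.27). Among the settings run it was called only when both arrays with squamous genes were left out (-0.77, adjusted limma p 0.0283, among 514 probe sets called). The testis form Atp6v1e2 (5.92 to 6.29) and the kidney form Atp6v1g3 (4.11 to 4.51, not tested) stayed under the negative-control percentile in every array.

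Pump genes were high in one LN4 lung and low in the other. LN4 replicate 3 was the highest of the 6 arrays for 10 of 21 tested subunits, against 19.6% of all tested probe sets: Atp6v0a2, Atp6v0a4, Atp6v0b, Atp6v0c, Atp6v0d1, Atp6v0e, Atp6v1a, Atp6v1b2, Atp6v1d and Atp6v1e1. LN4 replicate 1 was the lowest for 8 of 21 (15.6%), lay below both PC3 arrays for 15 of 21 (34.5%) and exceeded the Control mean for 5 of 21 (51.8%). Median deviations of the 21 from the Control mean were -0.13 in LN4 replicate 1 and 0.14 in LN4 replicate 3, with 0.02 and 0.11 in the PC3 lungs. For the 9 V0 genes the median in LN4 replicate 3 was 0.34. No member was over 2-fold above every other array in LN4 replicate 3, as 2.59% of all probe sets were. The part of the squamous and muscle genes of that array in its pump genes was not tested.

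The 5 tested members with the TFEB palindrome in their window were all higher in LN4 replicate 3 than in LN4 replicate 1 (41.3% of all tested probe sets). The gap was 0.09 to 0.94 with a median of 0.58. Atp6v0d1, Atp6v0e and Atp6v1a among them are pump genes, a family in which 15 of 21 tested genes were higher in LN4 replicate 3. The 19 tested members with a window and no palindrome had a median of -0.01 and a range from -0.64 to 1.28, which covers that of the 5. The 4 MiT/TFE factors that bind this element all had a higher mean in PC3 than in Control lungs and a lower mean in LN4 than in PC3 lungs, with arrays overlapping for Tfeb in both comparisons and for Tfe3 in the second. Tfeb, the best known of them, read 7.10 and 7.03 in Control, 7.19 and 6.98 in PC3 and 6.85 and 7.20 in LN4 lungs. Mitf read 6.08 and 6.51, 6.55 and 6.78, and 6.19 and 5.94, a LN4 minus PC3 difference of -0.60 (SE 0.22), and Tfec read 5.45 and 5.98, 6.36 and 6.15, and 6.13 and 6.12. Tfe3 read 7.06 and 7.21, 7.38 and 7.38, and 7.03 and 7.50. Apart from Tfe3 in LN4 replicate 3, all these values lay under the negative-control percentile of their array, and none of the differences passed the adjusted limma test.

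**Figure D3:**
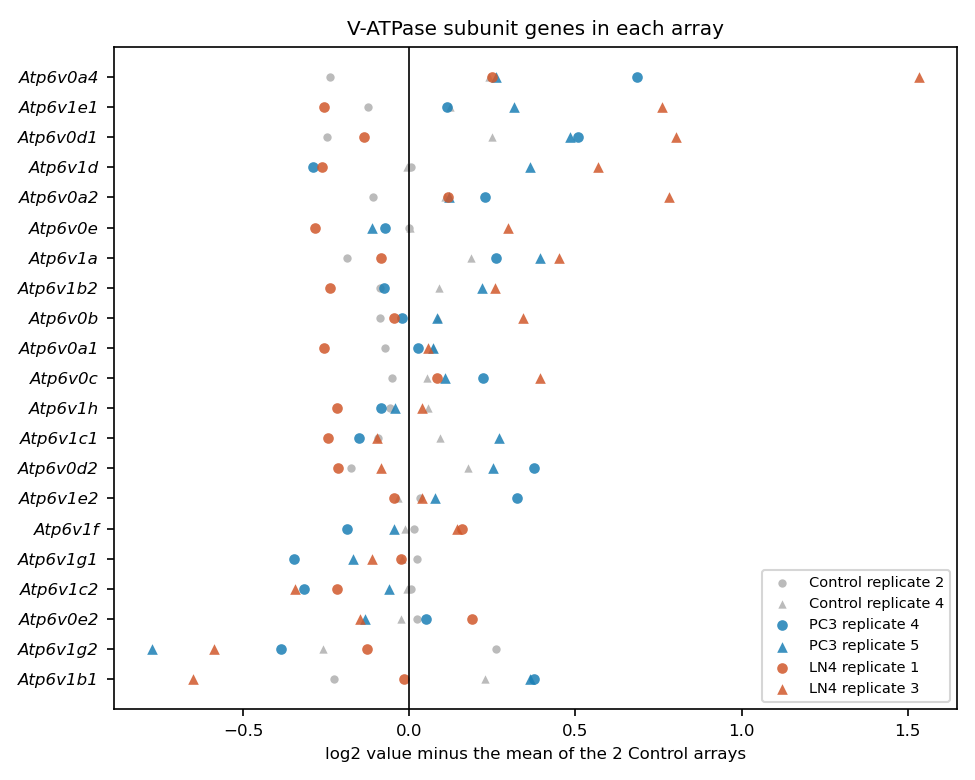
Log2 value minus the mean of the 2 Control arrays for the 21 tested V-ATPase subunit genes, 1 point per array, genes ordered by the gap between the LN4 lungs. LN4 replicate 3 (orange triangles) is highest for 10 of 21 genes, while LN4 replicate 1 (orange circles) is below both PC3 arrays for 15 of 21.

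Detection class moved with some members. The array with more detected probe sets was above its partner in all 3 groups for 7 of 21 tested V-ATPase genes and 4 of 12 tested cathepsins, against 20.7% of all tested probe sets, and below it for 2 and 1 (27.1%). Within the low-detection arrays the median LN4 minus PC3 difference was -0.28 over the tested cathepsins and -0.14 over the tested pump genes, and within the high-detection arrays it was -0.34 and 0.08. The median of the cathepsins thus had 1 direction in both pairs and that of the pump genes did not. Single cathepsins changed sign between the low and high pairs, namely Ctsd (-0.47 and 0.35), Ctsl (-0.29 and 0.19), Ctsf (-0.40 and 0.14) and Ctsw (0.002 and -0.33).

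Other lysosomal genes, counted from lists of the pathway, lay with the cathepsins. Of 35 tested lysosomal hydrolases and membrane proteins, 29 had a lower mean in LN4 than in PC3 lungs (52.2% of all tested probe sets). Of these, 21 were lower without overlap (18.1%), and the median of the 35 was -0.24. Lipa, the lysosomal lipase that frees cholesterol and fatty acids, read 8.92 and 9.31 in Control, 9.47 and 9.86 in PC3 and 8.89 and 8.88 in LN4 lungs. Manba, a mannosidase, read 7.40 and 7.60, 8.04 and 7.94, and 7.57 and 7.38. The LN4 minus PC3 differences were -0.78 for Lipa (SE 0.22) and -0.52 for Manba (SE 0.18), and neither passed the adjusted test.

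Of 10 other lysosomal peptidases and cathepsin relatives, 8 were lower in LN4 than in PC3 lungs (52.2% of all tested probe sets). All 8 were lower without overlap (18.1%), led by Napsa and Dpp7, a dipeptidyl peptidase (-0.40, SE 0.20). That list also holds Pla2g15, a phospholipase and not a peptidase, which is among the 8. Of 11 listed genes that tag lysosomal enzymes with mannose 6-phosphate or sort lysosomal proteins, 9 were lower (again 52.2%) and 6 did not overlap (18.1%). The sorting receptors Sort1 (-0.56, SE 0.20) and Igf2r (-0.28, SE 0.20) led them. Accessory and assembly factors of the V-ATPase were lower for 12 of 14 (52.2%), with 5 not overlapping (18.1%). Dmxl2 (-0.49, SE 0.18) and Dmxl1 (-0.43, SE 0.30) of the complex that joins V1 to V0 led them. Tcirg1, the a3 subunit, read 8.32 and 8.30 in Control, 8.38 and 8.36 in PC3 and 8.23 and 8.16 in LN4 lungs. Of 17 MiT/TFE factors and regulators, 9 were lower, the 4 factors among them, and 8 were higher, near the shares of all tested probe sets (52.2% and 47.8%). The largest differences in that list were those of Mitf and of Lamtor2, part of the scaffold that holds mTORC1 at the lysosome (0.55, SE 0.19).

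Cystatins and other listed protease inhibitors mostly lay above the PC3 mean in LN4 replicate 3, but not in LN4 replicate 1. Of 10 tested, 7 had a higher mean in LN4 than in PC3 lungs (47.8% of all tested probe sets), with a median of 0.51. Without overlap, 3 were higher (11.4%). The median of 0.51 came from LN4 replicate 3, whose median difference from the PC3 mean was 0.77. For LN4 replicate 1 it was -0.07, with 6 of 10 below the PC3 mean. The largest differences lay in LN4 replicate 3 alone: Spink5, an inhibitor of skin proteases, read 11.00 there and 6.04 to 6.37 in the other lungs, and Fetub, a cystatin-family protein, 10.70 against 6.04 to 6.94. Cstb, the cytosolic inhibitor cystatin B, read 8.09 and 8.13 in Control, 7.81 and 7.91 in PC3 and 8.14 and 8.79 in LN4 lungs. Cst3, the secreted inhibitor cystatin C, was lower in LN4 than in PC3 lungs, at 11.98 and 11.75 against 12.09 and 12.12.

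Markers of most lung cell types, those rich in lysosomes among them, had lower means in LN4 than in PC3 lungs (52.2% of all tested probe sets were lower, 18.1% without overlap). Alveolar macrophage markers were lower in LN4 lungs for 9 of 12 tested (4 without overlap, median -0.17), and monocyte and interstitial macrophage markers for 8 of 12 (4 without overlap, median -0.18). Mean levels of the alveolar macrophage list were 8.60 and 8.73 in Control, 8.74 and 8.63 in PC3 and 8.57 and 8.51 in LN4 lungs. Csf1r, the receptor that marks macrophages and monocytes, read 8.74 and 8.91, 8.89 and 8.96, and 8.56 and 8.28. Markers of dendritic cells and MHC class II were lower for 10 of 10 (3 without overlap, median -0.26), and those of fibroblasts and smooth muscle for 7 of 9 (5 without overlap, median -0.39). B cell markers were lower for 8 of 8 (4 without overlap, median -0.27), endothelial markers for 7 of 7 (2 without overlap, median -0.10) and airway markers for 7 of 8 (2 without overlap, median -0.37). With LN4 replicate 1 alone the medians of all these lists shrank. They were -0.005 for dendritic cells, -0.07 for alveolar macrophages and -0.08 for monocytes and interstitial macrophages. For fibroblasts and smooth muscle the median was -0.18, for B cells -0.20, for endothelium -0.01 and for airway 0.02. The alveolar type 2 list shrank as well, from -0.44 to -0.28. The part of these cell types in the cathepsin difference was not tested.

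**Figure D4:**
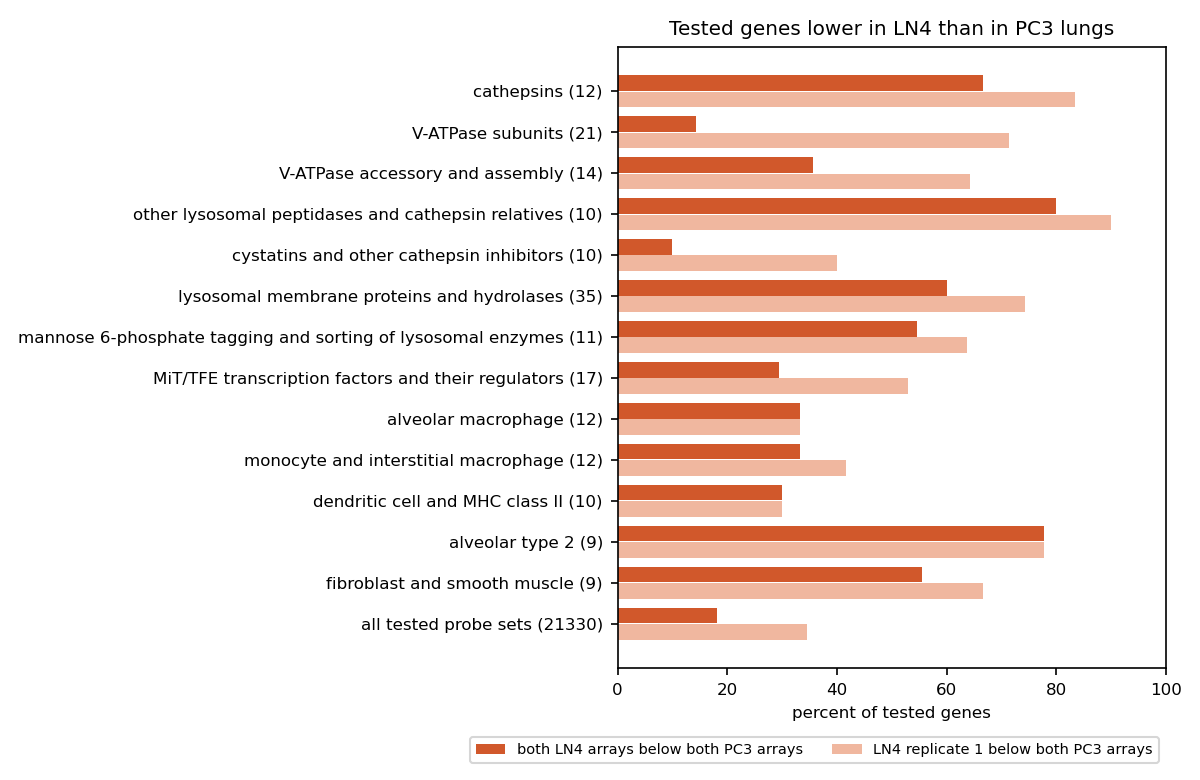
Percent of the tested genes of each list for which both LN4 arrays lay below both PC3 arrays (dark bars) or LN4 replicate 1 alone did (light bars), with the number tested in brackets; Napsa is in 2 lists. Cathepsins reach 66.7% and 83.3%, V-ATPase subunits 14.3% and 71.4%, and all tested probe sets 18.1% and 34.5%.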

How the data were processed

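Total RNA (10 ug) from lungs was hybridised to Affymetrix MoGene 1.0 ST arrays. The deposited values are log2 values made by the authors with RMA, per the submitters' processing notes, and its version is not given in the sources used here. RMA gives all arrays 1 distribution and combines the probes of each transcript. The percent of probe sets detected comes from the authors' chip report, per the file headers. Of 35556 probe sets, 7116 without an accession (negative controls among them) and the 25% of the other 28440 with the lowest means were left out, which left 21330. Sample labels gave the groups. A single limma 3.58.1 fit (R 4.3.3) of all 6 arrays used 3 group means and empirical Bayes (3 residual and 3.885 prior degrees of freedom), two-sided, with Benjamini-Hochberg adjustment at 0.05 over all tested probe sets. With 2 arrays per group the number of mice limits the precision, and the gap between the LN4 lungs enters every SE. On simulated arrays for PC3 against Control (21330 probe sets), the fit recovered 6 of 100 probe sets changed by 1 and 64 of 100 changed by 2 on the log2 scale.

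A gene took its brightest probe set. 6 genes had several, and those of Cts3 and of Ctsm hold equal values. Members with per-array values are the 5 of highest mean per family, up to 4 per direction and comparison without overlap, all V-ATPase isoforms and cathepsins of single lineages, and other lists give those of largest difference, with some more genes added after their values were seen. A listed marker gene is not reported here. Members and lists were chosen with earlier results of these data known. Promoter windows are RefSeq's for GRCm38.p6. Alternatives were other filters, moderation, weights, blocks, scaling and leaving out arrays. Figures used Python 3.11.15 with matplotlib 3.10.9.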

Additional observations from a re-analysis of the deposited data

How the results depend on the processing

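No member passed the adjusted limma test under the other filters, moderation, quality weights, centring, the detection class as a block or only the arrays compared. Leaving out 1 array at a time gave 0 to 1 called members for LN4 against Control (1 without LN4 replicate 1) and 0 for the other comparisons, and leaving out both arrays with squamous genes gave 1 for PC3 against Control and 2 for LN4 against PC3, where the spread comes from the 2 Control arrays. The median over all 22 V-ATPase genes was 0.01 for LN4 against Control and 0.01 for LN4 against PC3. Leaving out 1 array at a time it ran from -0.11 to 0.10 and from -0.21 to 0.13 in the 2 comparisons, without both arrays with squamous genes it was -0.11 and -0.16, and within the low-detection arrays -0.14 for LN4 against PC3. Centring each array also turned its sign, to -0.01 and -0.02, and so did leaving out PC3 replicate 4 for LN4 against PC3 (-0.05). The median over all 22 cathepsins was 0.04048 for LN4 against Control, -0.19 for the 12 above the 25% filter, -0.20 for those above the negative controls, -0.10 and -0.04376 within the low- and high-detection arrays, and -0.09442 to 0.04048 leaving out 1 array at a time. For LN4 against PC3 it was -0.13, with -0.28 above the filter, -0.35 above the negative controls, 0.04111 without both arrays with squamous genes, and -0.18 to -0.02667 leaving out 1 array at a time; the placental genes at background enter these medians. The count of tested cathepsins lower in LN4 than in PC3 lungs ranged from 10 to 12 of 12 under the leave-outs, which were chosen after seeing the data. The cause of these shifts was not tested. No paired analysis was made, since the labels name no matching of mice between the groups. Signal over background limits Ctsf, Ctsk and the isoforms near the negative controls.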
